A study of Mus musculus with 4 samples.

Results

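AP-1 (activator protein 1) is a transcription factor made of a Jun protein paired with a Fos protein or with another protein of the basic leucine zipper (bZIP) kind. Many Jun and Fos genes are immediate early genes, which a cell transcribes within minutes of a signal into short-lived transcripts. In monocytes, growth factors, adhesion and microbial products act on them through kinase cascades. The 10 genes described here were the Fos family members *Fos*, *Fosb* and *Fosl2*, the Jun family members *Jun*, *Junb* and *Jund*, the bZIP gene *Atf3*, and the immediate early genes *Egr1*, *Ier2* and *Btg2*. They were chosen by symbol, and all 10 were found among the 23995 gene symbols of the deposited table.

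RNA was sequenced from blood Ly6Clo and Ly6Chi monocytes of RBP-J-deficient mice (Rbpj fl/fl Lyz2 cre/cre) and control mice (Rbpj +/+ Lyz2 cre/cre), in 4 libraries, 1 for each subset and genotype. RBP-J is the nuclear factor through which Notch receptors act on transcription, and Lyz2-Cre, which both genotypes carried, deletes the floxed gene in myeloid cells. The control libraries are titled WT and carry the genotype label Lyz2-Cre. Mice were matched for gender and aged 7 to 12 weeks by the study's methods, and no treatment is given. How many mice went into a library is not given in the sources used here. Ly6Chi monocytes are the inflammatory blood monocytes, which give rise to Ly6Clo monocytes, the cells that patrol the vessel wall.

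Levels are FPKM, fragments scaled to transcript length and to the mapped fragments of the library, so they can be compared between genes. Differences are the log2 ratio of (FPKM + 1). A difference was called where (FPKM + 1) differed at least 2-fold, among the 10240 genes that reached 1 FPKM in any library, and all 10 genes passed that filter. With 1 library per group there was no replicate check, no test and no p-value, and the depth of the libraries is unknown. Less RNA per cell and fewer cells of a kind cannot be told apart in such samples.

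*Rbpj* itself was at 8.3 FPKM in the control and at 2.43 in the RBP-J-deficient Ly6Clo library, and at 14.4 and 2.85 in the Ly6Chi libraries, so that both deficient libraries were the lower ones. All 10 monocyte markers found had an FPKM of at least 1 in every library. The summed FPKM of 12 Ly6Clo markers was 4568.8 in the control and 3433.8 in the RBP-J-deficient Ly6Clo library, against 704 and 1225.9 in Ly6Chi monocytes. That of 9 Ly6Chi markers was 944 and 2330.7 in Ly6Clo monocytes, and 6864.5 and 6359.3 in Ly6Chi monocytes. By these sums the markers went with the labels, with the deficient Ly6Clo library nearer to the Ly6Chi level than the control one. The deficient Ly6Chi library was likewise nearer to the Ly6Clo level. The Ly6Clo markers did not move together. In deficient Ly6Clo monocytes *Cd36* (426 in control and 945), *Fabp4* (235 and 343) and *Pparg* (208 and 373) were higher, and the others listed were lower. T cell markers summed to at most 1.93. Neutrophil markers (10 of 11 found) summed to 239 in control and 170 in deficient Ly6Clo monocytes and to 1522.8 and 1198.4 in Ly6Chi monocytes. Of these sums *S100a8* alone made up 197 and 126, and 1085.0 and 861. *Mpo* was listed at 0 in all 4 libraries. *Camp* and *Ngp* were at 0 in control and at 5.52 and 4.87 in deficient Ly6Chi monocytes, while *Elane* was at 1.13 and 0 there. Platelet markers (6 of 6) summed to 126 and 125, and to 352 and 295. Erythroid markers (5 of 6 found) summed to 1582.9 in control and 276 in deficient Ly6Clo monocytes, and to 360 and 387 in Ly6Chi monocytes. Of the Ly6Clo sums *Hba-a2* made up 1170.9 and 89.4, and *Hbb-bt* 394 and 131. *Hbb-bs* alone of these markers was higher in deficient Ly6Clo monocytes, at 11.1 in control and 54.6. Of the B cell markers (6 of 7 found), *Cd22* was at 12.9 in control and 0.563 in deficient Ly6Clo monocytes, while *Cd79b* was at 41.9 and 100, the list summed to 68 and 102, and *Pax5* was listed at 0 in both. In Ly6Chi monocytes the B cell list summed to 26.2 and 47.2. The part of these differences in the results below was not tested.

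Promoters of RefSeq (GRCm38.p6), which run from 250 bases before to 50 bases after the start site, were found for 8 of the 10 genes, all but *Egr1* and *Ier2*. The last 150 bases before the start site are shown, on the strand of the gene. They are given for *Junb* and *Jun*, the Jun family genes at least 2-fold lower in both RBP-J-deficient libraries. They are also given for *Fos*, the most abundant Fos gene, and for *Fosl2*, which was higher in both RBP-J-deficient libraries. Capitals mark the letters searched on both strands: TGACG, the core of the cAMP response element to which CREB, ATF and Jun proteins bind, TGACATCA, a variant of the AP-1 site, TATAAA, the TATA box, and TGGGAA, the core to which RBP-J binds. The windows are chr8:84978749-84978898 for *Junb* and chr4:95052223-95052372 for *Jun*, both on the minus strand. They are chr12:85473740-85473889 for *Fos* and chr5:32136322-32136471 for *Fosl2*, both on the plus strand.
Junb: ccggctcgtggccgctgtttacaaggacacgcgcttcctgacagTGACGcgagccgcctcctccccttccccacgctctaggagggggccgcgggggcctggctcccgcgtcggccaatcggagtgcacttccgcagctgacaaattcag
Jun: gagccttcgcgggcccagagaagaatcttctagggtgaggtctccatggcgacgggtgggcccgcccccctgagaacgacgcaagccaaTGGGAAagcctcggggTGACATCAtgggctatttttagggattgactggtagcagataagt
Fos: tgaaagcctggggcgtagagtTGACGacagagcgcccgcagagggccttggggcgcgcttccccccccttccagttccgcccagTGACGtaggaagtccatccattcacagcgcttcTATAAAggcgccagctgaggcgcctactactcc
Fosl2: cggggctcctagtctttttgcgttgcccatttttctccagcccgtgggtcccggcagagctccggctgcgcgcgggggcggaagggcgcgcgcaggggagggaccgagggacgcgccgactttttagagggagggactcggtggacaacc
*Junb* held 1 core of the cAMP response element, at positions -106 to -102 from the start site, and *Fos* held 2, at -129 to -125 and -66 to -62, and a TATA box at -33 to -28. *Jun* held the variant AP-1 site and 1 RBP-J core, at -45 to -38 and -61 to -56. *Fosl2* held none of the letters searched in its whole promoter, which says only that they are not in this window. The RefSeq start site used for *Fosl2* lies inside the gene as GENCODE bounds it (given below). That used for *Junb* lies outside its GENCODE bounds, before the gene. The positions given for these genes rest on the RefSeq start sites.

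Over the whole promoters, TGACG was in 5 of the 8 genes (*Atf3*, *Btg2*, *Fos*, *Fosb* and *Junb*) and in 20.8% of all 32851 promoters. The full element TGACGTCA, which contains TGACG, was in *Btg2* and in 1.79% of all promoters. TGGGAA was in *Btg2*, *Jun* and *Jund*, 3 of the 8, and in 25.6% of all promoters. The AP-1 site TGACTCA was in none of the 8 and in 5.2% of all promoters, and the CArG box, to which serum response factor binds, was in none of the 8 and in 1.63%. TGACATCA was in 3.62% and TATAAA, held by *Fos* and *Junb*, in 13.6% of all promoters. In *Junb* the TATA box lay at positions 1 to 6 from the RefSeq start site, past the bases shown above. A match is a description of the letters and not evidence of a bound site.

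In Ly6Clo monocytes, the Jun family genes *Junb* and *Jun* were lower with RBP-J deficiency, while *Fos*, their main partner gene, differed by less than 2-fold. *Junb*, *Jun* and *Ier2* were at least 2-fold lower there, 3 of the 10 genes, where 11.1% of the 10240 genes were. *Fosl2* was at least 2-fold higher, 1 of the 10, where 8.97% of all genes were. The median log2 ratio of the 10 genes was -0.77, against 0.02 over all genes tested. In Ly6Chi monocytes *Junb* and *Jun* were again at least 2-fold lower, 2 of the 10 with a background of 4.56%, and none was at least 2-fold higher, with a background of 2.64%. The median was -0.35, against 0.00 over all genes. *Junb* and *Jun* were thus called lower in both subsets, as were 1.85% of all genes.

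**Figure D1:**
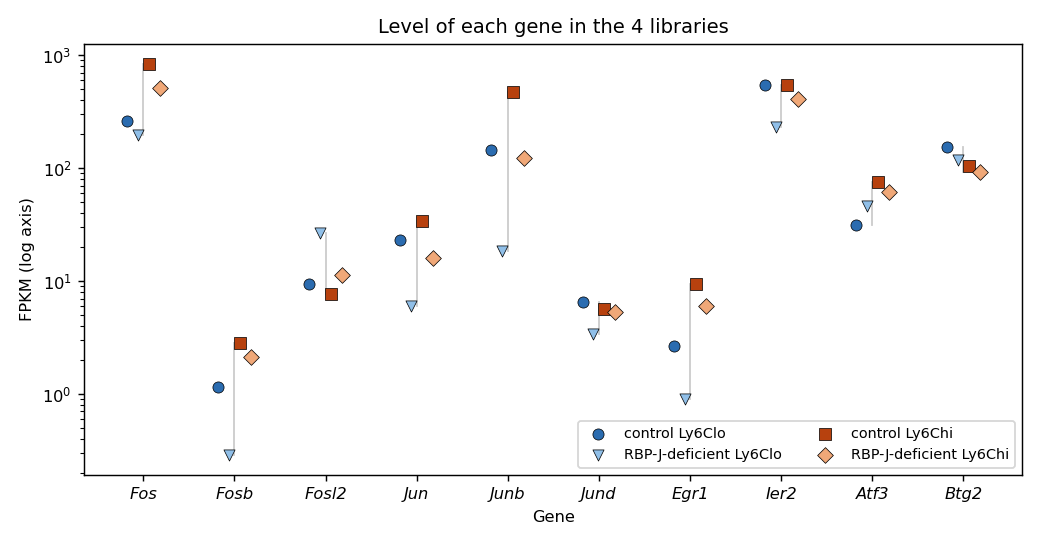
FPKM of each of the 10 genes (log axis) in the 4 libraries, 1 point per library, with a grey line from the lowest to the highest. *Junb* spans 18.6 to 468 FPKM, while *Btg2* and *Jund* span little.

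The order of the 4 libraries was similar for many of the genes. Of the 10, 7 were lowest in RBP-J-deficient Ly6Clo monocytes (*Fos*, *Fosb*, *Jun*, *Junb*, *Jund*, *Egr1* and *Ier2*), where 32.9% of all genes tested were lowest. In control Ly6Chi monocytes 6 were highest (*Fos*, *Fosb*, *Jun*, *Junb*, *Egr1* and *Atf3*), against 28.1% of all genes. The log2 ratio of deficient over control was below 0 in both subsets for 8 genes, all but *Fosl2* and *Atf3*, and 33.7% of all genes had that pattern. For 7 of these 8, all but *Fos*, the ratio was further from 0 in Ly6Clo monocytes, which held for 21.9% of all genes, most of those below 0 in both. The Ly6Clo and Ly6Chi genotype ratios come from separate libraries, but each subset ratio given further on shares its libraries with them.

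*Junb*, which encodes a Jun protein often tied to differentiation and to restraint of growth, was the member with the largest difference. The gene has 1 exon in its longest transcript, of 1809 bases, and lies on chromosome 8 of GRCm38 from 84974484 to 84978718, minus strand. Its FPKM was 146 in control Ly6Clo, 18.6 in RBP-J-deficient Ly6Clo, 468 in control Ly6Chi and 123 in RBP-J-deficient Ly6Chi monocytes. The deficient library was the lower one in each subset, and deficient Ly6Chi monocytes stood below control Ly6Clo monocytes. FPKM was 7.85-fold higher in control than in deficient Ly6Clo monocytes and 3.82-fold higher in Ly6Chi monocytes, with log2 ratios of -2.91 and -1.93. In order of the ratio it was number 22 from the lowest of all genes tested in Ly6Clo and number 35 in Ly6Chi monocytes. It was the only member at or below the study's lower fold threshold, 0.2 of control on (FPKM + 1), which 0.674% of genes reached in Ly6Clo monocytes. In Ly6Chi monocytes none of the 10 reached it, and 0.156% of all genes did.

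The annotated *Junb* gene overlaps *Prdx2*, a peroxiredoxin gene on the opposite strand, over 351 bases. *Prdx2* was at 162 FPKM in control and 320 in deficient Ly6Clo monocytes, and at 268 and 322 in Ly6Chi monocytes, so that its ratios of 0.98 and 0.26 lay on the other side of 0. Whether reads were counted by strand is not given in the sources used here, and without strand the reads of this stretch cannot be told apart.

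*Jun*, which encodes c-Jun, the founding member of the family, was lower in the same libraries. It has 1 exon on chromosome 4, from 95049034 to 95052222, minus strand. Its FPKM was 23.1 in control Ly6Clo, 6.07 in RBP-J-deficient Ly6Clo, 33.8 in control Ly6Chi and 16.1 in RBP-J-deficient Ly6Chi monocytes. Both deficient libraries stood below both control libraries, as for *Junb*. The log2 ratio was -1.77 in Ly6Clo and -1.02 in Ly6Chi monocytes, the latter just past 2-fold. The antisense gene *Junos* overlaps *Jun* over 689 bases.

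*Jund*, the Jun gene that most cells express without a signal, showed less difference. It lies on chromosome 8 from 70698949 to 70700616, plus strand, and *Gm11175* overlaps it on the other strand over 919 bases. Its FPKM was 6.58 in control Ly6Clo, 3.38 in RBP-J-deficient Ly6Clo, 5.71 in control Ly6Chi and 5.33 in RBP-J-deficient Ly6Chi monocytes. The deficient Ly6Clo library was lowest and the other 3 lay close together. Its log2 ratios were -0.79 and -0.08, neither of them past 2-fold, and the Ly6Chi ratio was 0.35 after subtraction of the GC trend described below. Only 3 other genes that averaged 5 FPKM or more lay within 1 percentage point of its GC content of 67.1%. The trend at *Jund* thus rests mostly on genes of other GC content, and its values after subtraction are uncertain.

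*Fos*, the signal-induced partner of Jun, differed far more between the subsets than between the genotypes. The gene has 4 exons in its longest transcript and lies on chromosome 12 from 85473890 to 85477273, plus strand. Its FPKM was 264 in control Ly6Clo, 196 in RBP-J-deficient Ly6Clo, 844 in control Ly6Chi and 510 in RBP-J-deficient Ly6Chi monocytes. Both Ly6Chi libraries stood above both Ly6Clo libraries. The genotype log2 ratio was -0.43 in Ly6Clo and -0.73 in Ly6Chi monocytes, not past 2-fold in either. In every library at least 92.9% of the genes tested had a level at or below that of *Fos*.

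*Fosb*, a close relative of *Fos*, was scarcely detected. It lies on chromosome 7 from 19302696 to 19310051, minus strand. Its FPKM was 1.16 in control Ly6Clo, 0.287 in RBP-J-deficient Ly6Clo, 2.81 in control Ly6Chi and 2.11 in RBP-J-deficient Ly6Chi monocytes. The order of the libraries was that of *Fos*. The log2 ratios were -0.75 and -0.30. At such levels the Ly6Clo ratio depended on the pseudocount, with -1.71 at 0.1 and -0.22 at 5, and was -0.38 after subtraction of the GC trend described below.

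*Fosl2*, which encodes the Fos-related antigen Fra-2, went the other way. It lies on chromosome 5 from 32135801 to 32157842, plus strand. Its FPKM was 9.44 in control Ly6Clo, 26.5 in RBP-J-deficient Ly6Clo, 7.73 in control Ly6Chi and 11.4 in RBP-J-deficient Ly6Chi monocytes. The deficient library was the higher one in each subset, and deficient Ly6Clo monocytes stood apart from the other 3 libraries. The log2 ratio was 1.40 in Ly6Clo monocytes, and 0.51, not past 2-fold, in Ly6Chi monocytes. *Fosl2* was the only member whose ratio was above 0 in both subsets.

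Since FPKM is scaled to transcript length, the Jun and Fos families could be summed within each library. Jun family transcripts summed to 175 FPKM in control and 28 in RBP-J-deficient Ly6Clo monocytes, a 6.26-fold difference. Fos family transcripts summed to 275 and 222 FPKM in the same libraries, a 1.24-fold difference. The Jun family was thus at 0.639 of the Fos family in control and at 0.126 in deficient Ly6Clo monocytes, a comparison within libraries that no scaling of the library changes. The Jun genes are the more GC-rich, at 55.5% to 67.1% against 51.9% to 56.0% for the Fos genes, and the GC trend described below was not subtracted from these sums.

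In Ly6Chi monocytes the Jun family summed to 508 FPKM in control and 144 in deficient cells, a 3.53-fold difference, and the Fos family to 855 and 524, a 1.63-fold difference. The Jun family was at 0.594 and 0.275 of the Fos family. The control libraries of both subsets had similar proportions, and both deficient libraries had lower ones. *Junb* made up 83.1% of the Jun family FPKM in control and 66.3% in deficient Ly6Clo monocytes, and 92.2% and 85.1% in Ly6Chi monocytes. *Fosl2* made up 3.4% of the Fos family in control and 11.9% in deficient Ly6Clo monocytes, and 0.9% and 2.2% in Ly6Chi monocytes. *Fos* transcripts were the bulk of the family in every library, with 88.0% as the lowest share.

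**Figure D2:**
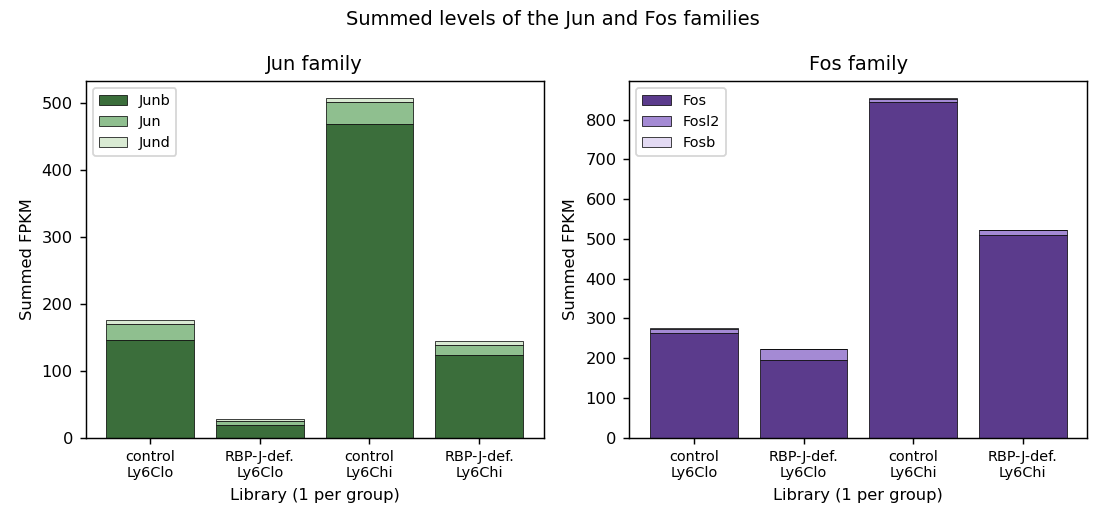
Summed FPKM of the Jun family (left) and the Fos family (right) in the 4 libraries, 1 bar per library from 0, stacked by gene. The Jun family bar is 175 in control and 28 in RBP-J-deficient Ly6Clo monocytes, while the Fos family bars of these libraries are 275 and 222.

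*Ier2*, a nuclear protein gene induced together with *Jun* and *Fos*, was among the most abundant of the 10. It has 1 exon and lies on chromosome 8 from 84661331 to 84662852, minus strand. Its FPKM was 546 in control Ly6Clo, 232 in RBP-J-deficient Ly6Clo, 542 in control Ly6Chi and 410 in RBP-J-deficient Ly6Chi monocytes. Both control libraries were nearly level, and the deficient Ly6Clo library was the lowest. The log2 ratio was -1.23 in Ly6Clo and -0.40 in Ly6Chi monocytes. The call in Ly6Clo monocytes was lost after subtraction of the GC trend described below, at -0.68.

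*Egr1*, a zinc finger factor that serum and phorbol esters induce through serum response factor, was low. It lies on chromosome 18 from 34859823 to 34864984, plus strand. Its FPKM was 2.65 in control Ly6Clo, 0.903 in RBP-J-deficient Ly6Clo, 9.37 in control Ly6Chi and 6.01 in RBP-J-deficient Ly6Chi monocytes. Both Ly6Chi libraries stood above both Ly6Clo libraries, and the deficient library was the lower one in each subset. The log2 ratios of -0.94 and -0.56 did not reach 2-fold. The Ly6Clo ratio was -1.46 at a pseudocount of 0.1 and -0.37 at one of 5, and -0.50 after subtraction of the GC trend.

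*Atf3*, a bZIP factor that stress induces and that often represses inflammatory genes, had its lowest level in control Ly6Clo monocytes. It lies on chromosome 1 from 191170296 to 191218039, minus strand, and *Gm24748* overlaps it on the other strand over 108 bases. Its FPKM was 31.7 in control Ly6Clo, 46.5 in RBP-J-deficient Ly6Clo, 75.3 in control Ly6Chi and 61.8 in RBP-J-deficient Ly6Chi monocytes. The libraries of the deficient mice lay between those of the control mice. Its log2 ratio was 0.54 in Ly6Clo and -0.28 in Ly6Chi monocytes, neither past 2-fold.

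*Btg2*, an antiproliferative gene that p53 induces, varied by less than 2-fold over the 4 libraries. It lies on chromosome 1 from 134075170 to 134079120, minus strand. Its FPKM was 155 in control Ly6Clo, 117 in RBP-J-deficient Ly6Clo, 105 in control Ly6Chi and 93.2 in RBP-J-deficient Ly6Chi monocytes. The Ly6Clo libraries stood above the Ly6Chi libraries, opposite to *Fos*. The log2 ratios of -0.39 and -0.17 were not past 2-fold.

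**Figure D3:**
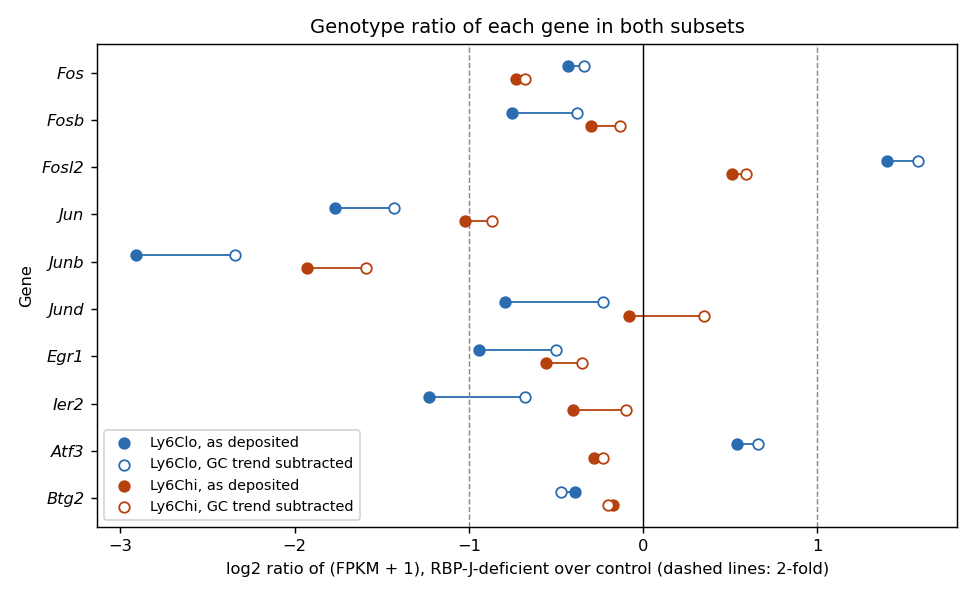
Genotype ratio (RBP-J-deficient over control, log2 of FPKM + 1) of the 10 genes in Ly6Clo (blue) and Ly6Chi (orange) monocytes. Filled points are the values as deposited, open points the same after subtraction of the GC trend, and dashed lines mark 2-fold. *Junb* is past 2-fold in both subsets on either scale, at -2.91 and -1.93 and after subtraction at -2.34 and -1.59.

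The GC content of the transcripts moved with the genotype ratios. Among the genes that averaged 5 FPKM or more, the median log2 ratio in Ly6Clo monocytes was 0.52 for 404 genes under 40% GC and -0.44 for 946 genes of 55 to 60% GC. In Ly6Chi monocytes these medians were 0.20 and -0.18. The 10 genes are mostly GC-rich, from 49.7% for *Btg2* to 67.1% for *Jund*, with *Junb* at 62.6% and *Ier2* at 60.9%. After a lowess trend of the ratio on GC content was subtracted, *Junb* and *Jun* were still at least 2-fold lower in Ly6Clo monocytes, at -2.34 and -1.43, and *Fosl2* at least 2-fold higher, at 1.58. In Ly6Chi monocytes *Junb* was still lower, at -1.59, and *Jun* was not past 2-fold, at -0.87. The median over the 10 genes was -0.43 in Ly6Clo and -0.21 in Ly6Chi monocytes, against -0.04 and -0.03 over all genes.

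*Junb* was also set beside the genes within 1 percentage point of its own GC content. Of these 38 genes, none had a lower ratio in Ly6Clo or in Ly6Chi monocytes, and their medians were -0.12 and -0.17. For *Jun*, 4.8% of 525 such genes were lower in Ly6Clo and 4.6% in Ly6Chi monocytes. For *Ier2*, 27.3% of 99 were lower in Ly6Clo and 46.5% in Ly6Chi monocytes. *Fosl2* stood above 96.9% of 612 such genes in Ly6Clo monocytes and above 89.5% in Ly6Chi monocytes. *Jun* and *Junb* thus lay near the low end and *Fosl2* near the high end among genes of like GC content, and *Ier2* did not.

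**Figure D4:**
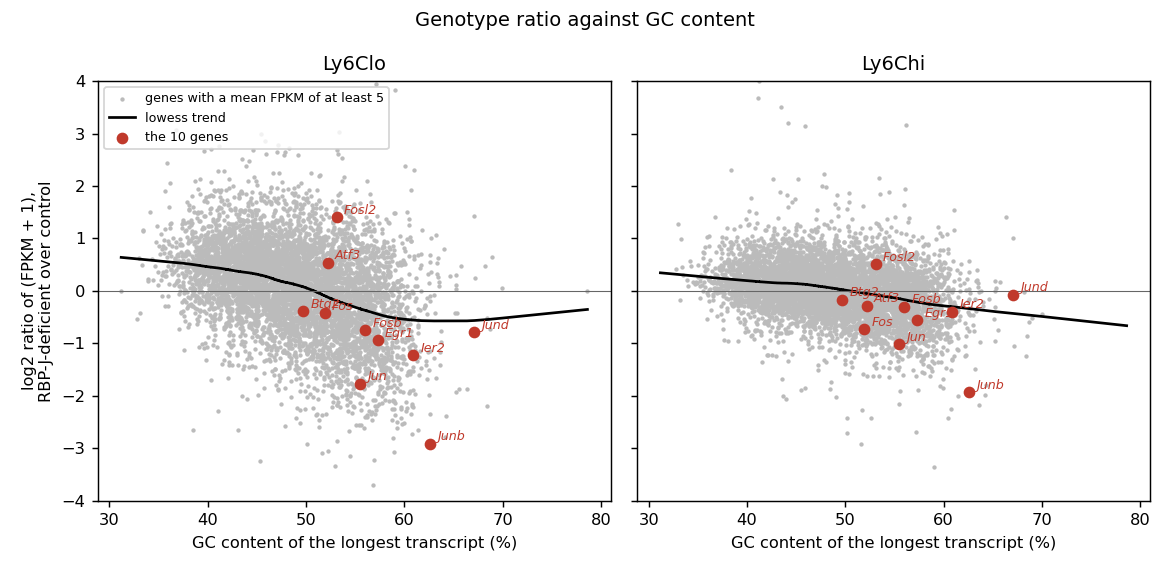
Genotype ratio (RBP-J-deficient over control, log2 of FPKM + 1) against the GC content of the longest transcript in percent, for 6086 genes that averaged 5 FPKM or more (grey), with the lowess trend (black line) and the 10 genes (red), in Ly6Clo (left) and Ly6Chi (right) monocytes. The y axis ends at 4 either way and leaves out 16 genes. The trend falls over most of the GC range, and *Junb* lies below it in both panels, at -2.91 and -1.93.

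The scaling of the libraries bore on the ratios as well. The FPKM of a library summed to between 711555 and 885652, the latter in RBP-J-deficient Ly6Clo monocytes. Rescaling every library to 1 sum (TPM) lowered the ratios by 0.30 in Ly6Clo and by 0.10 in Ly6Chi monocytes before the pseudocount. Of all genes called in Ly6Clo monocytes, 55.2% were lower as deposited, 77.1% as TPM and 67.4% after the median was centred. As TPM, *Jund* and *Egr1* were also at least 2-fold lower in Ly6Clo monocytes, at -1.08 and -1.22. *Fosl2* was above 0 in both subsets on each of these scales. *Actb*, a gene that every cell uses, is listed at 0 in both deficient libraries, while in control Ly6Clo and Ly6Chi monocytes it adds 27260.3 and 22794.9 to the sums.

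The subsets were also compared within each genotype. In control mice, 4 of the 10 genes, *Fos*, *Junb*, *Egr1* and *Atf3*, were at least 2-fold lower in Ly6Clo than in Ly6Chi monocytes, where 7.75% of all genes were. None was at least 2-fold higher, where 5.21% of all genes were. *Fos* was 3.2-fold, *Junb* 3.21-fold and *Egr1* 3.54-fold higher in FPKM in Ly6Chi monocytes, with log2 ratios of Ly6Clo over Ly6Chi of -1.67, -1.68 and -1.51. *Atf3* had -1.22. *Ier2* and *Jund* were nearly level between the subsets, at 0.01 and 0.18, and *Btg2* had 0.55.

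In RBP-J-deficient mice 5 of the 10 genes, *Fos*, *Fosb*, *Jun*, *Junb* and *Egr1*, were at least 2-fold lower in Ly6Clo than in Ly6Chi monocytes, with a background of 10.6%. *Fosl2* was at least 2-fold higher, with a background of 8.41%. The log2 ratio of Ly6Clo over Ly6Chi was -2.66 for *Junb*, -1.88 for *Egr1*, -1.38 for *Fos*, -1.28 for *Jun* and -1.27 for *Fosb*. It was 1.15 for *Fosl2*, against 0.26 in control mice. The ratio of *Junb* was thus further from 0 than in control mice, where it was -1.68, and that of *Fos* was nearer, where it was -1.67. Neither difference could be tested. Of all genes called here, 55.7% were lower as deposited and 71.0% as TPM, and the call of *Fosl2* was lost as TPM, at 0.95. After subtraction of the GC trend the calls of *Fosb* and *Jun* were lost, at -0.94 and -0.97.

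The other bZIP genes of the AP-1 network were compared between the genotypes in the same way. Of the 20 genes listed, 16 passed the filter, and none was at least 2-fold lower in either subset. Of all genes, 11.1% were lower in Ly6Clo and 4.56% in Ly6Chi monocytes. In each subset 1 was at least 2-fold higher, beside 8.97% of all genes in Ly6Clo and 2.64% in Ly6Chi monocytes. With 16 genes, whether these counts differ from those shares was not tested. *Crem*, which encodes a cAMP-responsive modulator, was at least 2-fold higher in Ly6Clo monocytes, with 2.59 FPKM in control and 6.61 in RBP-J-deficient cells and a log2 ratio of 1.08. In Ly6Chi monocytes 1 gene was at least 2-fold higher, *Ddit3*, named here after its values were seen, at 1.01. After subtraction of the GC trend the calls of *Crem* and *Ddit3* were lost, at 0.71 and 0.88, and *Batf3* and *Jdp2*, the latter also named after its values were seen, were past 2-fold in Ly6Clo monocytes, at 1.51 and 1.02. *Batf3*, the dendritic cell factor that pairs with Jun, had 10.1 FPKM in control and 20.4 in deficient Ly6Clo monocytes, a ratio of 0.95. *Atf4*, the factor of the integrated stress response, had a ratio of -0.70, and *Mafk*, a small Maf protein gene, had -0.67. The median was 0.01 in Ly6Clo and -0.06 in Ly6Chi monocytes, close to that over all genes.

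Among the other immediate early genes the differences were larger and went both ways. Of 40 listed, 32 passed the filter, and 8 were at least 2-fold lower and 4 at least 2-fold higher in RBP-J-deficient Ly6Clo monocytes, beside the 11.1% and 8.97% of all genes. In Ly6Chi monocytes 4 were lower, beside 4.56%, and none higher, beside 2.64%. The 4 higher in Ly6Clo monocytes, named here after their values were seen, were *Tnfaip3* at 1.31, *Zfp36l2* and *Gadd45a* at 1.24 and *Ier3* at 1.01. The medians of -0.11 and -0.06 were near 0. *Nr4a1*, the nuclear receptor on which Ly6Clo monocytes depend and also a marker of that subset in the lists used here, had 618 FPKM in control Ly6Clo, 65.6 in RBP-J-deficient Ly6Clo, 214 in control Ly6Chi and 182 in RBP-J-deficient Ly6Chi monocytes. Its log2 ratio was -3.22 in Ly6Clo and -0.23 in Ly6Chi monocytes, so that, unlike *Junb*, it was called in Ly6Clo monocytes only. By flow cytometry and qPCR, however, the study found similar Nr4a1 expression in Ly6Clo monocytes of both genotypes. The Ly6Clo ratio given here rests on 1 library per group, and the reason for the disagreement was not tested.

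The next lowest of these genes in Ly6Clo monocytes were *Dusp5*, *Dusp6* and *Socs3*. *Dusp5* and *Dusp6* encode phosphatases that switch off MAP kinases. *Dusp5* had 41.8 FPKM in control and 6.75 in deficient Ly6Clo monocytes, a log2 ratio of -2.47, and -0.26 in Ly6Chi monocytes. *Dusp6* had 222 and 40.8 FPKM in Ly6Clo and 254 and 105 in Ly6Chi monocytes, with ratios of -2.42 and -1.26. *Socs3*, which restrains cytokine receptors, had 33.9 and 6.35 FPKM in Ly6Clo and 25.8 and 8.67 in Ly6Chi monocytes, with ratios of -2.25 and -1.47. *Zfp36*, which encodes the RNA-destabilising protein tristetraprolin, had 203 and 53.9 FPKM in Ly6Clo and 322 and 147 in Ly6Chi monocytes, with ratios of -1.89 and -1.13. *Dusp6*, *Socs3* and *Zfp36* were thus called lower in both subsets, as *Junb* and *Jun* were.

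**Figure D5:**
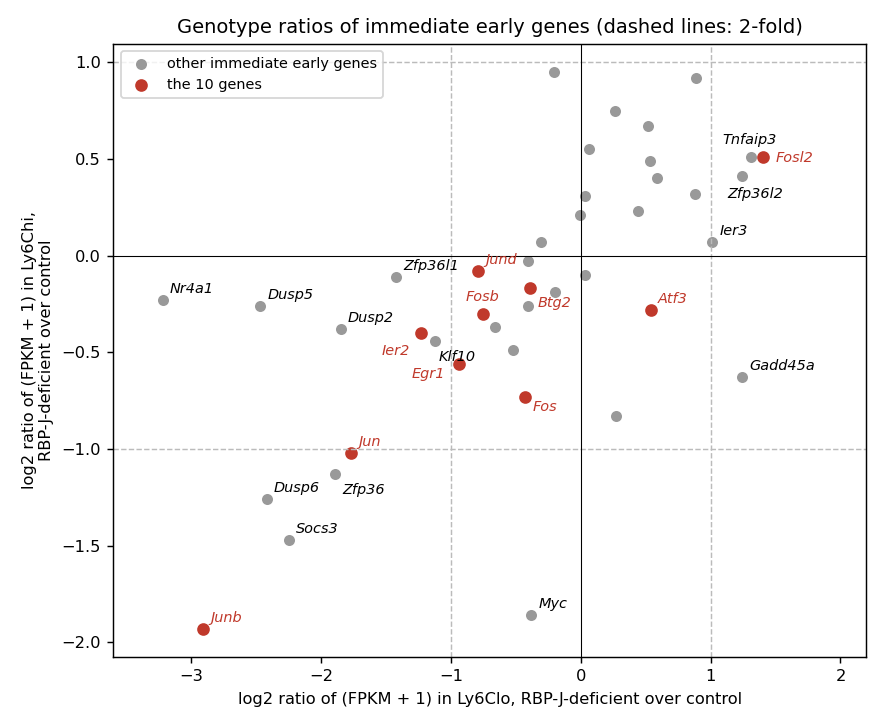
Genotype ratio (RBP-J-deficient over control, log2 of FPKM + 1) in Ly6Clo (x axis) and Ly6Chi (y axis) monocytes, for the 10 genes (red) and the 32 other immediate early genes that passed the filter (grey, named where past 2-fold in either subset). Dashed lines mark 2-fold, and *Junb* lies in the lower left corner at -2.91 and -1.93 with *Dusp6*, *Socs3*, *Zfp36* and *Jun*.

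Of 21 kinases and factors that act upstream of immediate early genes, all passed the filter. In Ly6Clo monocytes 5 were at least 2-fold lower and 3 at least 2-fold higher, beside the 11.1% and 8.97% of all genes. In Ly6Chi monocytes 2 were lower, beside 4.56%, and none higher, beside 2.64%. After the GC trend was subtracted, the numbers in Ly6Clo monocytes were 2 and 1. The 1 still higher was *Mkl2*, for which no GC content was available, so that its ratio was left as it was. *Mapk7*, the kinase ERK5, had ratios of -1.10 and -1.19 at low levels, and *Mapk3*, the kinase ERK1, had -1.22 and -0.06. *Mkl2*, a cofactor of serum response factor, had 1.38 and -0.20. Subtraction of the GC trend ended the calls of *Mapk3*, at -0.77, and of *Mapk7*, at -0.66 and -0.98.

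Of 13 genes known as AP-1 targets, 11 passed the filter, and 2 were at least 2-fold lower and 2 at least 2-fold higher in Ly6Clo monocytes, beside the 11.1% and 8.97% of all genes. *Vim*, the intermediate filament vimentin, had 113 FPKM in control and 446 in deficient Ly6Clo monocytes, a ratio of 1.98. *Ccl2*, a chemokine gene, was low there, at 0.421 and 1.94 FPKM, with a ratio of 1.05 that was 0.70 after subtraction of the GC trend. *Gclm*, an enzyme subunit of glutathione synthesis, had ratios of -1.43 and -1.42, and *Sqstm1*, an autophagy receptor, had -1.39 and -0.15. In Ly6Chi monocytes *Gclm* alone was called, 1 gene lower beside 4.56% of all genes, and none was higher, beside 2.64%. The medians of -0.05 and -0.06 were near those over all genes, and the ratios in Ly6Clo monocytes ran from -1.43 to 1.98.

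Of 12 stress-inducible chaperone genes, 2 were at least 2-fold lower in RBP-J-deficient Ly6Clo monocytes, beside the 11.1% of all genes, and none higher, beside 8.97%. In Ly6Chi monocytes 1 was lower, beside 4.56%, and 1 higher, beside 2.64%. The latter was *Hspb1*, named here after its values were seen, at 0 FPKM in control and 1.02 in deficient Ly6Chi monocytes. *Hspa1a*, an inducible HSP70 gene, had 13.8 and 2.89 FPKM in Ly6Clo and 12.1 and 4.62 in Ly6Chi monocytes, with ratios of -1.92 and -1.23. *Hspa1b*, a near-identical copy with which it shares reads, had -1.04 and -0.67, and the split between the copies is uncertain. After subtraction of the GC trend *Hspa1a* was called in Ly6Clo monocytes only, at -1.41 against -0.96 in Ly6Chi monocytes, and *Hspa1b* in neither, at -0.56 and -0.43. *Hspa5* had -0.73 and -0.43, and *Hsp90aa1* had 0.72 and 0.42. The medians of -0.01 and -0.10 were near 0.

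The mean profile of the 10 genes over the 4 libraries, as centred log2 (FPKM + 1), was 0.63 in control Ly6Chi, 0.13 in RBP-J-deficient Ly6Chi, -0.02 in control Ly6Clo and -0.74 in RBP-J-deficient Ly6Clo monocytes. *Fosb* lay nearest to it, at a Euclidean distance of 0.320, and *Junb* and *Fosl2* farthest, at 2.320 and 2.213. *Fos*, *Jun*, *Egr1*, *Atf3* and *Btg2* lay at 0.811 to 1.243. Outside the 10, among genes that averaged 10 FPKM or more, the nearest included *Atp6v0c*, *Irf8*, *Fam129a*, *Srd5a3* and *Bysl*, at distances of 0.076 to 0.128. *Irf8*, a transcription factor of monocytes, had 77.9 FPKM in control Ly6Clo, 48.2 in RBP-J-deficient Ly6Clo, 130 in control Ly6Chi and 92.9 in RBP-J-deficient Ly6Chi monocytes. With 4 libraries such a likeness describes the order and spacing of 4 values.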

How the data were processed

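The deposited FPKM values were made by the authors from paired reads sequenced on a HiSeq2500 (Illumina). The submitters' processing notes name CASAVA 1.8, TopHat2 2.1.0, Cufflinks 2.2.1 and the build mm10, and the table has the layout of Cuffdiff, with 6 pairs of libraries. Its columns of fold changes, p-values and q-values were not used. Rows sharing a symbol were summed. All 60 entries of the 10 genes carry the status OK.

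From the FPKM, log2 ratios of (FPKM + 1) were computed in Python 3.11.15 with numpy 2.4.6 and pandas 2.3.3. The pseudocount of 1 follows the study's methods, which use thresholds of 0.2 and 5.7 on (FPKM + 1). No test was made, since each of the 4 groups holds 1 library. Counts were not used here, so depth is unknown and no interval is given. The GC trend was a lowess fit (statsmodels 0.14.6, fraction 0.3, 3 iterations) on 6086 genes averaging 5 FPKM or more, using the longest GENCODE M21 transcript. It covered 94.9% of the genes tested, and the others kept their ratio. The procedure was run on simulated libraries with a linear GC trend and known changes planted in the more abundant genes. That check does not cover genes at low levels, such as *Fosb* and *Egr1*, or a trend of another shape.

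Genes named are the 10 genes, *Rbpj*, up to 4 genes per list with the largest ratios in Ly6Clo monocytes, list genes called in both subsets, and the 6 nearest profiles. Some genes that this rule names are not reported here. The genes and lists were chosen with earlier results of these data known. Positions are those of GENCODE M21 on GRCm38.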

Additional observations from a re-analysis of the deposited data

Results flagged for a closer look

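For 3 of the 10 genes the ratio had opposite signs in the groups compared, each of which is a single library, so the differences were not tested. The genotype ratio of *Atf3* was 0.54 in Ly6Clo and -0.28 in Ly6Chi monocytes, a difference of 0.82 on the log2 scale. The ratio of Ly6Clo over Ly6Chi for *Ier2* was 0.01 in control mice and -0.82 with RBP-J deficiency, a difference of 0.83, and its control value lay on the other side of 0 as TPM. That of *Jund* was 0.18 in control and -0.53 in deficient mice, a difference of 0.71. After subtraction of the GC trend the values of *Jund* were 0.53 and -0.00, and the opposite signs were no longer seen at this rounding. Few genes have a GC content near that of *Jund*, so these values are uncertain.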

How the results depend on the processing

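Of 300 ratios of the 10 genes under alternatives, 279 kept their sign and their side of 2-fold, 11 fell short of it and 7 came past it. Of the ratios not called, 3 changed sign, and no called ratio did. The 300 include those under the alternative filters on low values, which do not alter a ratio. Those ratios stayed the same by construction and say nothing about robustness. In Ly6Clo monocytes the number of genes at least 2-fold lower, 3 as reported, was 5 at a pseudocount of 0.1, 5 as TPM, 6 at a threshold of 1.5-fold and 1 at the study's thresholds, at which none was higher (0). In Ly6Chi monocytes the number lower, 2 as reported, was 1 at a pseudocount of 5, 1 after subtraction of the GC trend and 0 at the study's thresholds. In control mice the number lower in Ly6Clo monocytes, 4 as reported, was 0 at the study's thresholds. In RBP-J-deficient mice the number lower, 5 as reported, was 2 at a pseudocount of 5, 3 where every library had to reach 1 FPKM (8 genes left), 3 where the mean had to reach 10 FPKM (7 genes left), 3 after subtraction of the GC trend and 1 at the study's thresholds. The number higher there, 1 as reported, was 0 at a pseudocount of 5, as TPM and at the study's thresholds. Filters act through the genes left and thresholds by construction; the cause of the other changes was not tested. No replicate could be left out, since each group holds 1 library. No paired analysis was possible because the labels give no replicate numbers and the results come from no test.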
